A study of Mus musculus with 4 samples.

Results

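Wnt ligands and canonical Wnt readouts were examined in the RNA-seq of mouse AT2 cells, the surfactant-producing epithelial cells that renew the alveolus. The set was fixed by name as 10 of the 40092 genes in the count table, namely the ligands Wnt3a, Wnt4, Wnt5a and Wnt7b, the ligand acyltransferase Porcn, the receptor Lgr4, beta-catenin (Ctnnb1), the DNA-binding partners Lef1 and Tcf7l2, and the target gene Axin2. The comparison asked whether these genes differed in AT2 cells that lack Alkbh5, an RNA m6A demethylase, after lung injury. Ctrl mice carried Alkbh5 flox/+, Sftpc-CreERT2 and Rosa26-mTmG, and A5-CKO mice carried Alkbh5 flox/flox with the same Cre and reporter. Both groups received tamoxifen and bleomycin, and GFP+ cells were sorted on day 14. Each group had 2 libraries, and the controls had a floxed allele and active Cre as well, so the comparison is between loss of both alleles and loss of 1. The Cre is driven by the Sftpc promoter of AT2 cells and its label is inherited, so sorted cells include any descendants of AT2 cells that had changed identity by day 14. The labels do not say that the libraries of a group came from separate mice, so the p-values measure the spread between these libraries, which may be technical.

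Wnt proteins are lipid-modified by Porcn, carried out of the cell by Wls and bound by Frizzled receptors together with Lrp5 or Lrp6. In the absence of ligand, a destruction complex built on Axin and Apc marks beta-catenin for degradation. With ligand, beta-catenin accumulates and joins TCF/LEF factors on target genes, of which Axin2 is the most widely used readout because it is induced in many tissues and feeds back on the pathway. In the alveolus, Axin2 marks AT2 cells with stem cell activity, nearby fibroblasts supply Wnt5a, and AT2 cells can make Wnt ligands of their own after injury.

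The libraries held from 18144865 to 20811757 counts, and values are given as CPM, the counts for each 1000000 counts of the TMM-scaled library, where 3 counts, taken as the floor of detection, correspond to 0.128 to 0.177 CPM. Alkbh5 had 81.7 and 152 CPM in Ctrl and 19.3 and 36.6 CPM in A5-CKO, which follows the labels. The 8 AT2 markers, led by the surfactant genes, summed to 48296 and 70198 CPM in Ctrl and to 36391 and 29555 CPM in A5-CKO, and none of them was at 0 in any library. In the 2 libraries Ctrl 1 and A5-CKO 2, summed markers of transitional AT2 cells, mesenchymal cells and macrophages were all above those of Ctrl 2 and A5-CKO 1, and this division crossed the genotypes. The AT1 sum narrowly had the same division (1499 and 1250 CPM in Ctrl, 1273 and 1293 CPM in A5-CKO). Of the 6 AT1 markers tested, 4 were higher in both A5-CKO libraries, where 20.3% of all genes were. Another 1 was lower in both, where 23.5% were. The club cell sum was lower in both A5-CKO libraries (2849 and 2730 against 1974 and 1402 CPM). So was the B cell sum (88.0 and 71.6 against 58.9 and 33.9 CPM). T cell, ciliated and endothelial sums followed neither division. The sums are drawn in the plot of marker lists by library.

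**Figure D1:**
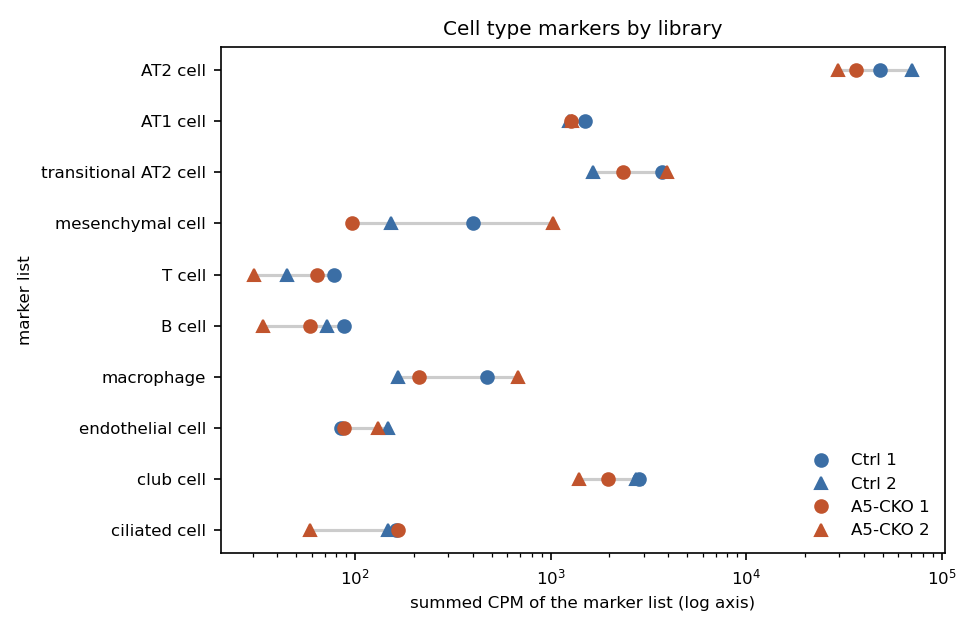
Summed CPM (log axis) of 10 marker lists in each library, with circles for replicate 1, triangles for replicate 2, blue for Ctrl and red for A5-CKO. The AT2 marker sum was lower in both A5-CKO libraries, as were 5 of the 8 AT2 markers singly, where 23.5% of all genes tested were. The mesenchymal sum ran from 97.1 in A5-CKO 1 to 1026 in A5-CKO 2.

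None of the 10 Wnt genes was called as changed between genotypes by the test used. That test did not call the targeted gene Alkbh5 either (adjusted p in edgeR 0.528). All 10 had enough counts to be tested, and 0 passed the edgeR quasi-likelihood test at a Benjamini-Hochberg adjusted p under 0.05, where the share called over all 16661 genes tested was 0%. At an unadjusted p under 0.05 there were 0 of 10 as well, against 4.48% of all genes tested in the higher direction and 4.71% in the lower, or 9.18% together, and DESeq2 with default filtering called 0 of 10 at an adjusted p under 0.05, against 0.385% of all genes. The adjusted p ranged from 0.619 for Wnt4 to 0.998 for Wnt7b. The median log2 fold change (LFC, A5-CKO minus Ctrl) was 0.11, with 6 genes above 0 and 4 below, beside a median of -0.02 over all genes tested. With total counts only, the median was 0.43 with 8 genes above 0, beside 0.30 over all genes, and in limma voom it was 0.07 with 5 above 0. Wnt4, Lgr4 and Tcf7l2 had their lowest A5-CKO library above their highest Ctrl library, 3 of 10 where 20.3% of all genes were. No gene of the set lay lower in both, where 23.5% of all genes did. At this group size the smallest two-sided p from an exact permutation test is 0.333. The values are drawn in the plot of the 10 genes by library.

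**Figure D2:**
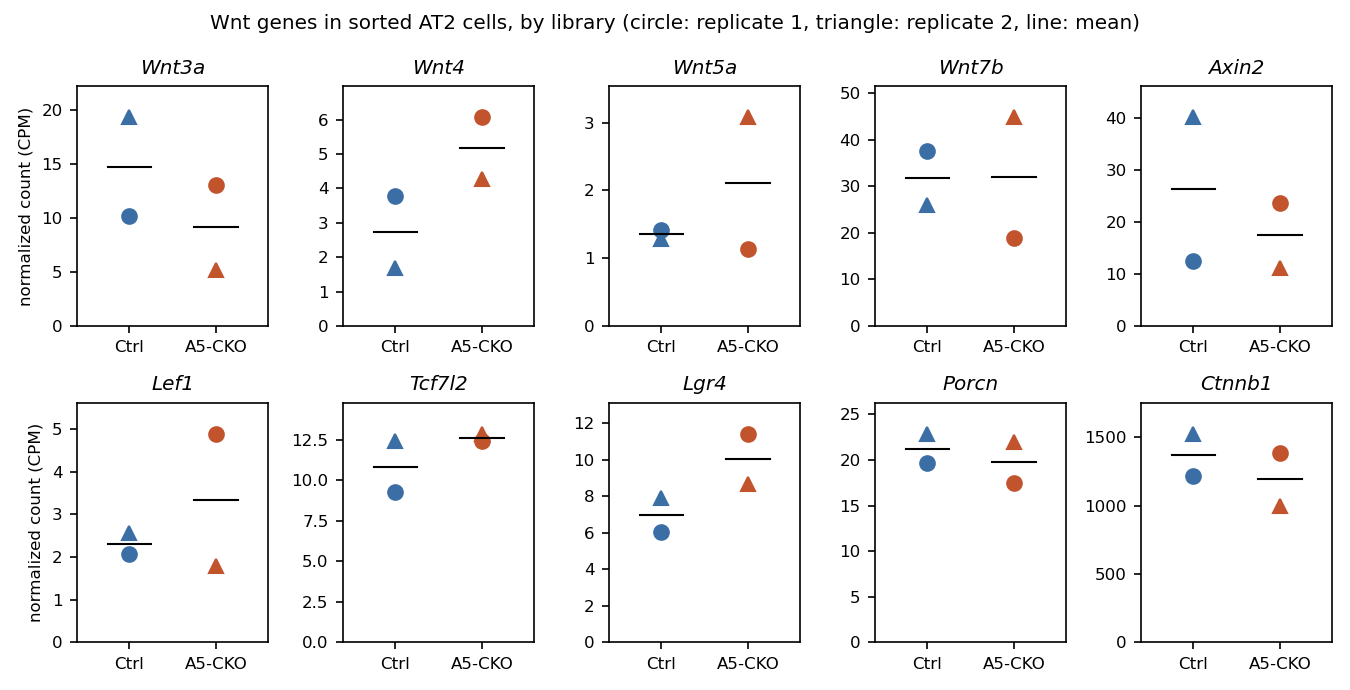
Normalized counts (CPM, linear axes from 0) of the 10 Wnt genes, with circles for replicate 1, triangles for replicate 2 and a line at the mean of the 2 libraries of each genotype. The genotypes separate for Wnt4, Tcf7l2 and Lgr4 and overlap for the other 7 genes, and the 2 libraries of a genotype lie far apart for Axin2 and Wnt3a.

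Per length, the set spanned a wide range of levels in AT2 cells. Levels between genes were compared as the mean over the 4 libraries of CPM per kilobase of the longest coding transcript. Ctnnb1 stood above all others at 354 CPM per kb, with its lowest library (276) above the highest of any other gene of the set. Porcn followed at 10.9 and Wnt7b at 9.37, and their ranges over the libraries overlapped. Axin2 came next at 5.15, Wnt3a at 4.32 and Tcf7l2 at 3.16, each overlapping the next. Lgr4 at 1.68 lay below Tcf7l2 in every library. Wnt4 at 0.943 and Lef1 at 0.812 overlapped, and Wnt5a was lowest at 0.246, with its highest library (0.439) below the lowest of Lef1 (0.516).

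Wnt3a (chromosome 11, 59248036 to 59290751, GRCm38.p6, minus strand, 4 exons) encodes a ligand that signals through beta-catenin. It had 10.2 and 19.3 CPM in Ctrl 1 and Ctrl 2, and 13.0 and 5.21 CPM in A5-CKO 1 and A5-CKO 2. Ctrl 2 was the highest and A5-CKO 2 the lowest, and the genotypes overlapped. Group means were 14.7 ± 6.47 CPM for Ctrl and 9.13 ± 5.53 CPM for A5-CKO (SD, n = 2 each). Its LFC was -0.69 (standard error, SE, 0.59, 95% interval -2.09 to 0.70), and its adjusted p in edgeR was 0.684. It was -0.21 without Ctrl 2 and -1.51 without A5-CKO 1.

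Wnt4 (chromosome 4, 137277635 to 137299501, plus strand, 5 exons) encodes a ligand with canonical and other actions that depend on the tissue. It had 64 and 29 counts in Ctrl and 134 and 100 in A5-CKO, or 3.78 and 1.69 against 6.07 and 4.27 CPM. The genotypes did not overlap, though A5-CKO 2 was close to Ctrl 1. This gave an LFC of 0.92 (SE 0.63, 95% interval -0.58 to 2.41), the largest in size of the set, and its adjusted p in edgeR was 0.619. It was 0.40 without Ctrl 2 and 1.67 without Ctrl 1.

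Wnt5a (chromosome 14, 28504543 to 28527448, plus strand, 5 exons), known mainly for signalling that does not use beta-catenin, had the lowest level of the set per length. It had 24 and 22 counts in Ctrl and 25 and 72 in A5-CKO, or 1.42, 1.28, 1.13 and 3.08 CPM. Only A5-CKO 2 stood out, and A5-CKO 1 was the lowest of the 4. The fitted LFC was 0.64 (SE 0.73, 95% interval -1.10 to 2.38), and without A5-CKO 2 it was -0.28. The 8 mesenchymal markers were all detected in every library. They summed to 400.1 and 153 CPM in Ctrl and to 97.1 and 1026 CPM in A5-CKO. Wnt5a and these markers placed the 4 libraries in the same order, as did Wnt7b, Wnt5b and Wnt9a. Pathway genes that are not ligands had that order too, among them Ctnnbip1, Sfrp1, Sfrp2 and Apcdd1. The share of all genes with it was not computed. For Wnt5a, Ctrl 1, Ctrl 2 and A5-CKO 1 differed little, at 24, 22 and 25 counts. The part of mesenchymal cells in the Wnt5a counts was not tested. In bulk samples more cells of a type and more RNA per cell cannot be told apart.

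Wnt7b (chromosome 15, 85535437 to 85581821, minus strand, 4 exons), an epithelial ligand of the lung, had the highest mean level per length of the whole ligand family, with a range that overlapped that of Wnt3a. It had 37.5 and 26.1 CPM in Ctrl and 19.0 and 44.8 CPM in A5-CKO. The highest and the lowest library were both A5-CKO, with Ctrl between them. Group means were 31.8 ± 8.12 CPM for Ctrl and 31.9 ± 18.3 CPM for A5-CKO (SD, n = 2 each), an LFC of 0.0046 (95% interval -1.12 to 1.13). The interval leaves room for a difference of about a factor of 2 either way.

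Across the ligand family of 19 genes, 12 had enough counts to be tested and 0 had an adjusted p under 0.05 in edgeR, with 6 fold changes above 0 and 6 below. At an unadjusted p under 0.05 there were 0, where 9.18% of all genes tested had one. Per length, Wnt7b, Wnt3a and Wnt7a (3.93 CPM per kb) led the family, and each gene in the order overlapped the next. Wnt7a, a close relative of Wnt7b, had 20.0 and 1.57 CPM in Ctrl and 7.24 and 21.0 CPM in A5-CKO, so that Ctrl 1 exceeded Ctrl 2 by 12.7 times and A5-CKO 2 exceeded A5-CKO 1 by 2.90 times. The LFC of Wnt7a was 0.39 (SE 1.04), and leaving out A5-CKO 2 gave -0.60 while leaving out Ctrl 1 gave 3.24. Of the ligands outside the set, Wnt10b had the largest fold change, 0.51 (SE 0.97), from 3.78 and 0.582 CPM in Ctrl and 4.62 and 1.62 CPM in A5-CKO. The 7 ligands not tested were Wnt1, Wnt3, Wnt6, Wnt8a, Wnt8b, Wnt9b and Wnt16, with at most 8 counts in a library. Wnt16 had 0 counts in all 4 libraries, which allows up to 0.128 to 0.177 CPM.

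**Figure D3:**
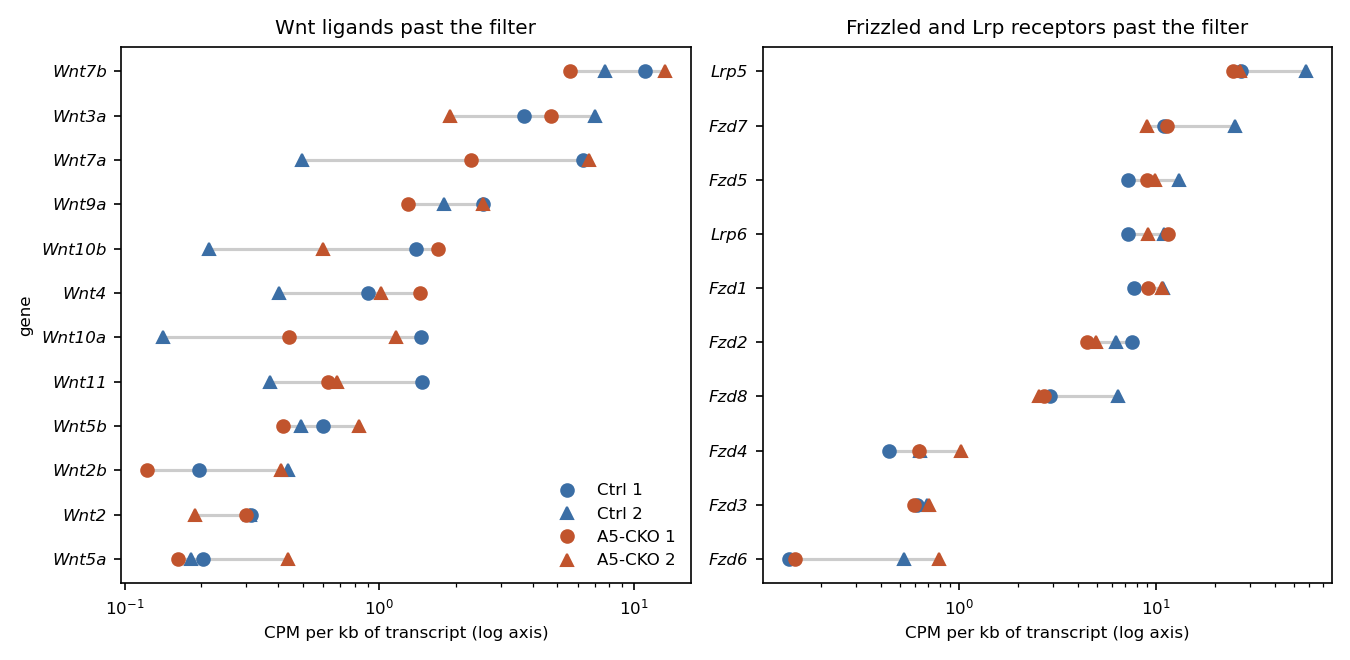
Levels of the tested Wnt ligands (left) and Frizzled and Lrp receptors (right) in CPM per kb of transcript on log axes, with a point for each library in the same symbols and colours as the marker plot and a grey line over the range. Wnt7b led the ligands at a mean of 9.37 and Lrp5 the receptors at 34.0, and most ranges overlap those of their neighbours in the order.

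Among the ligands, the 2 libraries of each genotype were compared as well, again with no test. Of the 12 tested, 7 were higher in Ctrl 1 than in Ctrl 2 and also higher in A5-CKO 2 than in A5-CKO 1, where 27.1% of all genes tested were, and 1 ran the other way, where 30.0% of all genes did. Wnt3a was that gene. The 8 markers of transitional AT2 cells, which are keratins and other genes of cells between AT2 and AT1, summed to 3718 and 1642 CPM in Ctrl and to 2348 and 3950 CPM in A5-CKO, with the same division. The 7 macrophage markers summed to 476 and 165 CPM in Ctrl and to 213 and 682 CPM in A5-CKO, again with Ctrl 1 and A5-CKO 2 on top, and none of these 15 markers was at 0 in a library. Their part in the ligand counts was not tested.

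Porcn (X chromosome, 8193846 to 8206548, minus strand, 14 exons) encodes the acyltransferase that every Wnt ligand needs for secretion. It had 19.6 and 22.9 CPM in Ctrl and 17.5 and 21.97 CPM in A5-CKO, and the libraries overlapped. The difference was an LFC of -0.11 (SE 0.36, 95% interval -0.95 to 0.74). With total counts in place of TMM factors, a scaling under which the median gene had an LFC of 0.30, it was 0.22. Wls, the carrier of acylated Wnt proteins, had 375 and 376 CPM in Ctrl, against 328 and 353 CPM in A5-CKO. Its LFC was -0.14 (SE 0.31) and became 0.18 with total counts only and -0.53 with the GC and length correction.

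Lgr4 (chromosome 2, 109917647 to 110014257, plus strand, 18 exons) encodes an R-spondin receptor that raises the amount of Frizzled at the cell surface. It had 6.03 and 7.91 CPM in Ctrl and 11.4 and 8.68 CPM in A5-CKO. The genotypes did not overlap, with A5-CKO above Ctrl. Group means were 6.97 ± 1.33 CPM for Ctrl and 10.04 ± 1.93 CPM for A5-CKO (SD, n = 2 each), the LFC was 0.53 (SE 0.47, 95% interval -0.58 to 1.63), and its adjusted p in edgeR was 0.697. Leaving out a library moved it to between 0.30 and 0.69. With a correction for GC content and transcript length it was 0.24.

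Of the 9 genes of the R-spondin axis, 6 were tested and 0 passed the adjusted threshold or an unadjusted p under 0.05 in edgeR. Over all genes tested, 0% passed the adjusted threshold and 9.18% the unadjusted one. Lgr6, a related receptor, had 12 and 10 counts in Ctrl and 28 and 44 in A5-CKO, the largest fold change of that list at 1.28 (SE 0.71, adjusted p in edgeR 0.565). Of the 12 Frizzled and Lrp receptors, 10 were tested and 0 passed either threshold. Lrp5, a co-receptor and the highest receptor in mean level per length at 34.0 CPM per kb, had 139 and 298 CPM in Ctrl, against 127 and 138 CPM in A5-CKO. Fzd7, next at 14.1 CPM per kb, had 49.8 and 114 CPM in Ctrl, against 51.6 and 41.0 CPM in A5-CKO, and Fzd8 had 17.3 and 38.5 CPM in Ctrl, against 16.1 and 15.3 CPM in A5-CKO. In these 3 receptors Ctrl 2 stood above the other libraries, and the LFCs of -0.72, -0.82 and -0.83 became -0.11, -0.15 and -0.19 without it. Fzd5, the next in level at 9.83 CPM per kb, had an LFC of -0.11 (SE 0.36).

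Among receptors outside the Frizzled family, 3 of 4 were tested, and Ptk7, a co-receptor in planar polarity, had the smallest p. It had 164 and 177 CPM in Ctrl and 95.5 and 117 CPM in A5-CKO, an LFC of -0.68 (SE 0.29, 95% interval -1.38 to 0.01, adjusted p in edgeR 0.528).

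Ctnnb1 (chromosome 9, 120933400 to 120960507, plus strand, 15 exons) encodes beta-catenin, which also links cadherins to the cytoskeleton. It had 1217 and 1525 CPM in Ctrl and 1387 and 1000.4 CPM in A5-CKO, and the genotypes overlapped. Its LFC was -0.20 (SE 0.38, 95% interval -1.10 to 0.70), and it was 0.12 with total counts only. Since beta-catenin is regulated mainly by protein degradation, its mRNA level is no readout of pathway activity. Of the 4 genes of its adhesion partners, 0 passed either threshold, where 0% (adjusted) and 9.18% (unadjusted) of all genes did. The largest fold change was that of Jup (plakoglobin), -0.44 (SE 0.31).

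Lef1 (chromosome 3, 131110297 to 131224357, plus strand, 12 exons) encodes a TCF/LEF factor and is itself a frequent Wnt target. It had 35 and 44 counts in Ctrl and 108 and 42 in A5-CKO, or 2.07, 2.56, 4.89 and 1.80 CPM. A5-CKO 1 was the highest library and A5-CKO 2 the lowest. This gave an LFC of 0.53 (SE 0.69, 95% interval -1.12 to 2.17), and without A5-CKO 1 it was -0.38. Lef1 is also expressed by T cells, whose 8 markers were all detected and summed to 77.9 and 44.9 CPM in Ctrl and to 64.0 and 30.3 CPM in A5-CKO. The T cell sum was highest in Ctrl 1 and Lef1 in A5-CKO 1, and both were lowest in A5-CKO 2. The part of T cells in the Lef1 counts was not tested.

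Tcf7l2 (chromosome 19, 55741797 to 55933659, plus strand, 14 exons) encodes the TCF factor best known from intestinal stem cells. It had 9.28 and 12.4 CPM in Ctrl and 12.4 and 12.9 CPM in A5-CKO. The A5-CKO libraries lay above both Ctrl libraries, but A5-CKO 1 and Ctrl 2 were nearly equal. The fitted LFC was 0.22 (SE 0.42, 95% interval -0.77 to 1.21, adjusted p in edgeR 0.869). Corrected for GC and length, it was 0.0450.

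Lef1 and Tcf7l2 were the members whose promoter windows held a TCF/LEF core word, so their sequences are shown. Windows ran from 250 bases before to 50 after each annotated start (RefSeq, GRCm38.p6), and 7 of the 10 members had 12 windows in all. The search took the word CTTTGAA on both strands. It also took the word CTTTGAT on both strands. The variants with a T before the last base, which are the word CTTTGTA as well as the word CTTTGTT, were searched likewise. At least 1 of these words was present in 16.9% of all 32851 windows and in 11.6% of the 86 windows of the pathway genes. Axin2 had 1 window with none of them, Lef1 had a word in 1 of 4 windows and Tcf7l2 in 1 of 2. The Lef1 stretch is chr3:131156137-131156163, where the word in capitals, a reverse-strand match, starts 147 bases before a start site. The Tcf7l2 stretch is chr19:55895297-55895323, where the word starts 14 bases before a start site. Each stretch lies inside the gene span, after the gene start at 131110297 (Lef1) or 55741797 (Tcf7l2). These are therefore internal start sites. Both are read 5′ to 3′ on the plus strand.
Lef1: aacctcagaaTACAAAGtaggattgca
Tcf7l2: aaatatcaggCTTTGTTcttttgattg

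Of the 14 genes of the beta-catenin and TCF/LEF complex, 0 had an adjusted p under 0.05 in edgeR, and Pygo2 was the 1 gene of all 80 pathway genes tested with an unadjusted p under 0.05, where 9.18% of all genes had one. Pygo2 encodes a chromatin-binding co-activator of beta-catenin. It had 104 and 113 CPM in Ctrl and 60.3 and 69.2 CPM in A5-CKO, with both A5-CKO libraries below both Ctrl libraries. The difference was an LFC of -0.74 (SE 0.28, 95% interval -1.41 to -0.07), and its adjusted p in edgeR was 0.528. Its unadjusted p ranged from 0.0320 to 0.206 over the 17 alternatives and was above 0.05 in 9 of them, among them upper-quartile factors, total counts only, the GC and length correction, default DESeq2 and every fit that left out a library. Of the 13 genes of the destruction complex and the Dishevelled proteins, which relay the signal from Frizzled, 6 fold changes were above 0 and 7 below, and the largest in size was that of Dvl2, -0.96 (SE 0.61), from 48 and 52 counts in Ctrl and 38 and 30 in A5-CKO.

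Axin2 (chromosome 11, 108917828 to 108950783, plus strand, 11 exons) encodes a scaffold of the destruction complex and is the readout of canonical signalling in this set. It had 213 and 691 counts in Ctrl and 524 and 263 in A5-CKO, or 12.6, 40.2, 23.7 and 11.2 CPM. Ctrl 2 was the highest library and A5-CKO 2 the lowest, and Ctrl 1 lay below A5-CKO 1. Group means were 26.4 ± 19.5 CPM for Ctrl and 17.5 ± 8.83 CPM for A5-CKO (SD, n = 2 each). Its LFC was -0.59 (SE 0.62, 95% interval -2.08 to 0.89), and its adjusted p in edgeR was 0.743. The libraries of 1 genotype differed by more than the genotypes did, 3.19 times between the Ctrl libraries and 2.11 times between the A5-CKO libraries. Without Ctrl 2 the LFC was 0.42, so its direction rested on that library.

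**Figure D4:**
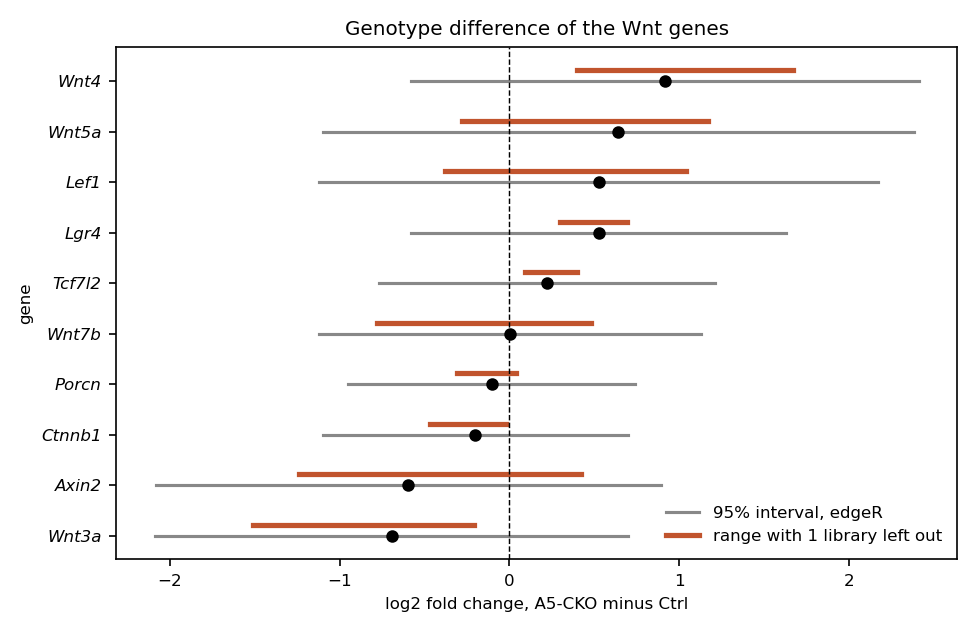
Log2 fold change (A5-CKO minus Ctrl) of the 10 Wnt genes as black points, with the 95% interval from edgeR in grey and the range over the 4 fits that each left out 1 library in red. Every interval includes 0, and the red range crosses 0 for Wnt5a, Lef1, Wnt7b, Porcn and Axin2.

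The other target genes likewise had no adjusted p under 0.05. Of the 10 in the list, all were tested, 3 had fold changes above 0 and 7 below, and 0 had an unadjusted p under 0.05. Over all genes tested, 8183 fold changes were above 0 and 8478 below, and 9.18% had an unadjusted p under 0.05 in edgeR. Nkd1, a feedback inhibitor that binds Dishevelled, had the largest fold change in size. It had 276 and 665 CPM in Ctrl and 274 and 230 CPM in A5-CKO, an LFC of -0.90 (SE 0.47, adjusted p in edgeR 0.549). A5-CKO 1 was just below Ctrl 1, and without Ctrl 2 the LFC was -0.18. Of the 13 secreted inhibitors, 6 were tested and 0 passed either threshold. Sfrp1, which binds Wnt proteins outside the cell, had 4.79 and 2.62 CPM in Ctrl and 1.63 and 18.7 CPM in A5-CKO. Its LFC of 1.45 (SE 1.02) came from A5-CKO 2, the library with the highest mesenchymal sum, and was -1.21 without it.

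The members were also described by how the 2 libraries of each genotype differed, a description with no test. Ctrl 2 exceeded Ctrl 1 and A5-CKO 1 exceeded A5-CKO 2 in 5 of the 10 genes, Wnt3a, Axin2, Lef1, Lgr4 and Ctnnb1, where 30.0% of all genes tested did, and of these Lgr4 was also separated by genotype. The reverse held for Wnt5a and Wnt7b, where 27.1% of all genes did. Likeness was measured as the root-mean-square difference of log2 CPM profiles over the 4 libraries after subtracting each gene's mean, against the 79 other pathway genes tested. The profile closest to Axin2 was that of Rnf43, a ubiquitin ligase that removes Frizzled from the cell surface and is a common Wnt target, at 0.06, where the median over the pathway genes was 0.71. Rnf43 had 15 and 46 counts in Ctrl and 33 and 17 in A5-CKO. The nearest of 79 genes lies below their median by construction, and with so few counts the distance is imprecise. The profile closest to Wnt7b was that of another ligand, Wnt9a, at 0.11, with 8.46 and 5.93 CPM in Ctrl, against 4.30 and 8.51 CPM in A5-CKO. Porcn was closest to Fzd3 (0.06), Ctnnb1 to Btrc (0.07), Tcf7l2 to Tnks2 (0.07), Lgr4 to Apc (0.14), Wnt5a to Wnt5b (0.24), Wnt3a to Tcf7l1 (0.27), Lef1 to Apc (0.30) and Wnt4 to Myc (0.41). These are descriptions over 4 libraries, in which all genes of a library share its depth and its cell makeup, and the marker sums differed between libraries.

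**Figure D5:**
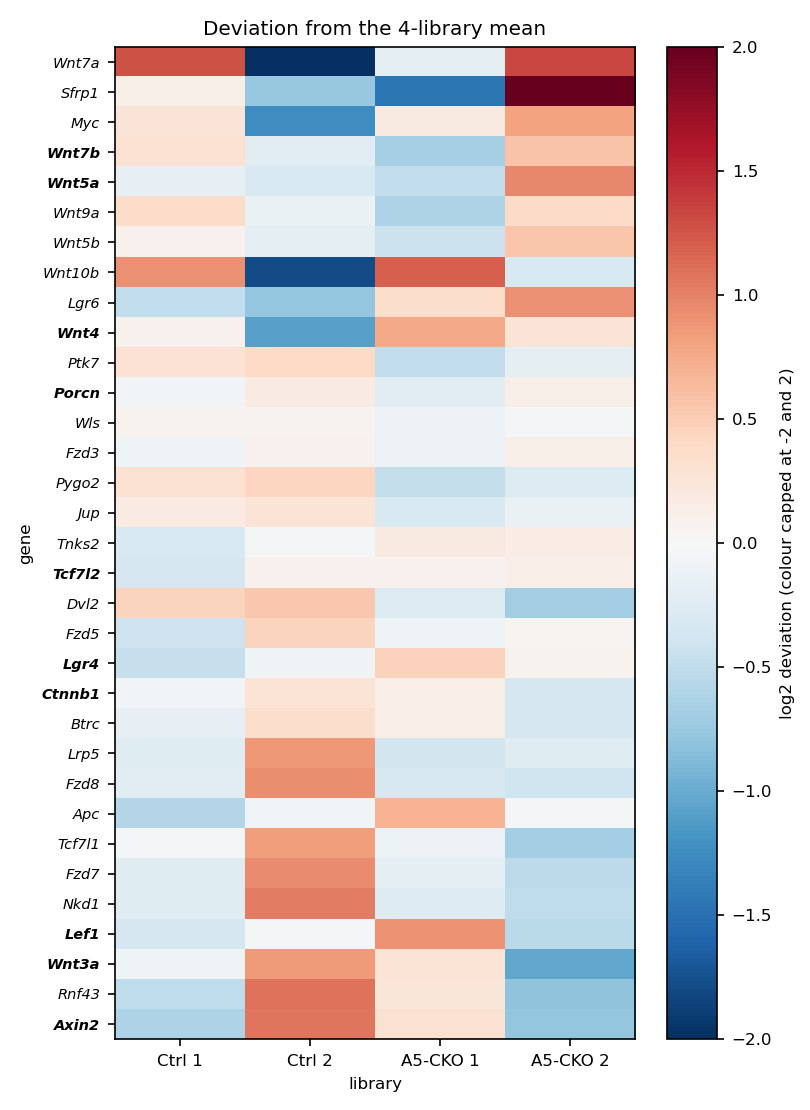
Log2 deviation of each gene from its mean over the 4 libraries (colour, capped at -2 and 2), for the 10 Wnt genes in bold, the other genes chosen by rule and the genes nearest to each member in profile, sorted by how far Ctrl 2 and A5-CKO 1 exceed Ctrl 1 and A5-CKO 2. Sfrp1, Wnt7a and Wnt7b lie toward one end, and Axin2, Rnf43 and Wnt3a at the other.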

How the data were processed

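The authors trimmed paired-end reads with Trim Galore 0.6.10, removed ribosomal reads, aligned to mm10.p6 with HISAT2 2.2.1, removed duplicates and deposited whole read counts per gene from featureCounts 2.0.3 (versions from the submitters' processing notes). The counting is described under MeRIP-seq and was taken as that of the RNA-seq. Its strand setting is not given in the sources used here, so Wnt7b, Tcf7l2 and Porcn, each overlapped by a long non-coding gene with at most 72 counts in a library, are uncertain by an amount not measured here, since reads in the shared stretch could be lost or assigned to either gene. Counts of 1 to 10 were even in 74.4% to 78.0% of genes. If both mates of a pair were counted, which the sources used here do not state, 2 counts stand for 1 fragment, and the printed counts and the floor of 3 counts stand for fewer fragments than their number. Counting intervals and floors cover counting error only.

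The counts were fitted with edgeR 4.0.16 (R 4.3.3) using TMM, filterByExpr and the quasi-likelihood test, A5-CKO against Ctrl, with Benjamini-Hochberg adjustment over 16661 of 40092 genes (biological coefficient of variation 41.6%). Standard errors are the fold change over the square root of F. Alternatives were DESeq2 1.42.0, limma voom 3.58.1, other scalings and filters, a robust fit, a replicate block, a GC and length correction (GENCODE M21, 4 spline degrees of freedom, 15237 genes) and each library left out. Members and lists were chosen with earlier results of these data known. Named genes are the members, Alkbh5, in each list the separated genes with an unadjusted p under 0.05 or else the largest fold change, the 3 ligands and 3 receptors highest per length, and the nearest profile of each member.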

Additional observations from a re-analysis of the deposited data

How the results depend on the processing

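No alternative gave a Wnt member or a pathway gene an adjusted p under 0.05, and none gave a member an unadjusted p under 0.05. Over all genes, the 0 calls of edgeR became 55 in DESeq2 on the same genes and 59 with its default filtering. Alkbh5 had a log2 fold change of -2.06 and did not pass in the main edgeR fit (adjusted p 0.528). It passed in DESeq2 with -2.01 on the same genes and -2.02 by default. Fold changes near 0 turned with the processing. With total counts only, Porcn was 0.22, Ctnnb1 0.12, Wls 0.18 and Fzd5 0.23, and with upper-quartile factors Fzd5 was 0.0015. Porcn was 0.21 with the GC and length correction, and Wnt7b was -0.017 without a filter and -0.10 in limma voom. The labels do not say whether same-numbered libraries were prepared as pairs. Same-numbered libraries deviated with a correlation of -0.35 across genes. With 2 libraries in each group this fixes the crossed value at 0.35, so the correlation cannot decide the pairing. With the replicate block no gene passed and Wnt7b was -0.10. The crossed pairing, chosen after seeing the data, called 230 of 16661 genes, Alkbh5 (-2.06) among them, with Wnt7b at -0.10. It called 0 members, which says little at so small a share of all genes. Halving the counts, also chosen after seeing the data, called 0 genes. With each library left out, the median of the members ranged from -0.10 to 0.40, beside -0.08 to 0.11 over all genes tested. The share of all genes that did not overlap was not computed there. The 3 to 9 members that did not overlap in those fits, which fewer libraries make easier, are therefore no result about the set. Fold changes that turned in those fits ranged from -0.28 to 1.17 for Wnt5a, -0.78 to 0.48 for Wnt7b, -1.24 to 0.42 for Axin2, -0.38 to 1.04 for Lef1, -0.31 to 0.0368 for Porcn, -0.43 to 2.46 for Wnt10b, -1.21 to 2.32 for Sfrp1, -0.60 to 3.24 for Wnt7a and -0.41 to 0.35 for Fzd5. For all of these, the cause was not tested. With 2 libraries in each group, the spread between them and, for Wnt4, Wnt5a and Lef1, few counts limit what could be detected.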
